A study of Cricetulus griseus with 16 samples.

Results

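Fatty acid synthesis, desaturation and elongation were followed at the level of messenger RNA in Chinese hamster ovary (CHO) cells exposed to heat. The set was chosen by name and holds 10 genes: the regulator Srebf1, the synthesis enzymes Acly, Acaca and Fasn, the desaturases Scd2, Fads1 and Fads2, and the elongases Elovl1, Elovl5 and Elovl6. Of these 10 names, 9 were matched, whatever their case, by a row among the 20824 genes counted, and no row was named Acly, while 4423 rows carried an identifier only. Fads2 had 4 counts in all 16 libraries together, so 8 genes passed the filter on low counts and were tested.

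The cells were the established line CHO (ATCC CCL-61), cultured in Ham's F-12K medium with serum and seeded 24 h ahead of treatment. There were 4 groups of 4 cultures each, lettered A to D and given as biological repeats: cells kept at 37 °C, cells held for 1 h or for 6 h at 40 °C, and cells heated to 42.5 °C, always for 1 h. No time is given for the 37 °C group, so whether its time in culture matched that of the 6 h group is not known. The study set mild (40 °C) against moderate (42.5 °C) heat to ask how the transcriptome responds to the dose of heat. All groups are the same line with no genetic change and no added agent, so the values describe 1 cell line in culture.

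Cytosolic fatty acid synthesis starts from citrate, which ATP citrate lyase (Acly) turns into acetyl-CoA. Acetyl-CoA carboxylase (Acaca) makes malonyl-CoA from it, and fatty acid synthase (Fasn) builds the saturated chain, mainly palmitate. Elongases then lengthen chains in the endoplasmic reticulum, and stearoyl-CoA desaturases put in the first double bond. The Fads enzymes add double bonds to polyunsaturated chains. Chain length and double bonds are among the features that affect how fluid membranes are. Srebf1 encodes the transcription factor SREBP1, which is released from the endoplasmic reticulum membrane by cleavage and drives many of these genes.

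Levels are given as CPM, the count of a gene scaled to the size of its library, with the TMM factors of edgeR. A gene is said to have risen, fallen or changed only where the Benjamini-Hochberg adjusted p of edgeR's quasi-likelihood test over all genes was under 0.05, and changes of at least 1.5-fold were counted apart. Total counts were between 10504192 and 14668365 per library, and a floor of 3 counts corresponded to 0.205 to 0.286 CPM. Levels were not compared between genes, since counts also depend on transcript length. RNA was taken from whole cultures, so fewer cells of a kind and less RNA per cell cannot be told apart.

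One control library stood apart from the rest. Between 37 °C replicate D and the other 3 controls, chi-square per degree of freedom over genes was 41.63 to 49.44, while the other 21 pairs of libraries within groups gave 2.54 to 8.01. The study left out 1 control for disagreeing with its group, and its listed control counts are those of replicates A, B and C. Replicate D was therefore left out here. The text also says which calls of the 8 tested genes, and which counts of the lists of other genes, changed with it. The heat shock genes checked the labels: Dnajb1, a co-chaperone, rose by 1.63, 0.65 and 3.79 (log2) after 1 and 6 h of 40 °C and after 42.5 °C, and Hspb1, the small heat shock protein Hsp25, rose by 1.11, 1.53 and 2.98. With replicate D in the fit 0 of the 4 heat genes found were called after 1 h at 40 °C, with Dnajb1 at 1.57 (adjusted p = 0.114) and Hspb1 at 0.82 (adjusted p = 0.408), whereas 4 were called after 6 h and 3 at 42.5 °C. The 4 mesenchymal markers summed to 2530 to 2650 CPM at 37 °C, 2480 to 2580 CPM after 1 h and 2140 to 2490 CPM after 6 h of 40 °C, and 2680 to 2810 CPM at 42.5 °C, almost wholly from Vim and Fn1, while Col1a1 and Cdh2 were below 1 CPM in every library. Of 7 ovarian markers 4 (Foxl2, Fshr, Cyp19a1 and Nr5a1) were below 1 CPM everywhere, and the 7 summed to 7.95 to 10.2 CPM at 37 °C, 11.7 to 16.7 CPM after 6 h of 40 °C and 11.2 to 15.2 CPM at 42.5 °C, with Star, a steroidogenic gene, rising by 0.75 and 0.99 (log2). The 2 epithelial markers found, of 4, summed to 1.7 to 4.14 CPM, and leukocyte and endothelial markers summed to at most 0.326 CPM. The part of these differences in the results was not tested.

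**Figure D1:**
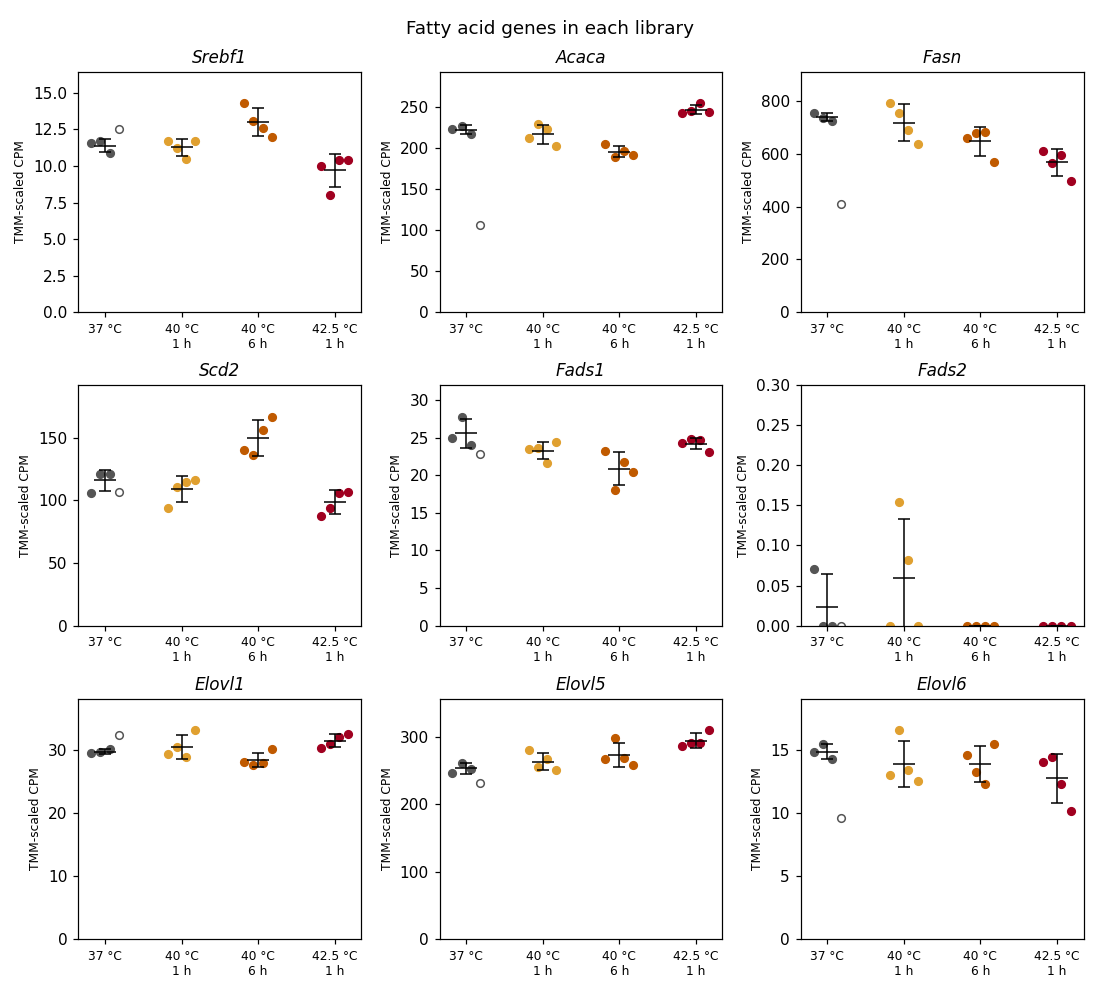
TMM-scaled CPM (vertical axis, from 0, with its own scale for each gene) of the 9 genes found, in each library of the 4 groups. Filled points are libraries used, open points are 37 °C replicate D, and bars are the mean ± SD of the libraries used. Scd2 is highest at 40 °C for 6 h, Fasn is lowest at 42.5 °C for 1 h apart from replicate D, and Fads2 stays at or under 2 counts in every library.

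After 1 h at 40 °C none of the 8 genes tested changed. Their log2 fold changes lay between -0.14 (Fads1, adjusted p = 0.43) and 0.06 (Elovl5, adjusted p = 0.605), with a median of -0.04 beside 0 over all genes. By edgeR's test 0 genes of the set passed at an unadjusted p under 0.05, beside 1556 of all 10494 genes. DESeq2's Wald test also called 0 of the set. Over all 10494 genes tested, 112 (1.07%) rose and 60 (0.572%) fell in this comparison. The 95% intervals bound what could have been missed: the interval for Fasn ran from -0.17 to 0.09 and that for Scd2 from -0.24 to 0.06. The change of Elovl6 was -0.11 with an interval from -0.33 to 0.11, the widest of the 8.

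After 6 h at 40 °C, Scd2 rose and Acaca, Fasn and Fads1 fell. This made 1 of 8 genes higher beside 14.7% of all genes, and 3 of 8 lower beside 14.8% of all genes. The median change of the 8 was -0.09. The changes were small, from 12.4% to 29.1% of the control level, and no gene of the set passed 1.5-fold. With all 4 controls in the fit, Scd2 alone was called, beside 566 genes higher and 556 lower of all 10448 tested.

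At 42.5 °C for 1 h, Fasn and Scd2 fell and Acaca and Elovl5 rose. That is 2 of 8 genes higher beside 20.8% of all genes, and 2 of 8 lower beside 22.3%. The median change was -0.16, and again no gene of the set passed 1.5-fold. At an unadjusted p under 0.05, 6 of the 8 passed, Srebf1 and Elovl6 being the others, beside 5305 of all 10470 genes tested. With all 4 controls in the fit, Elovl5 alone was called, beside 710 genes higher and 1185 lower of all 10408 tested. Under scaling by total counts alone, an alternative added after the data were seen, the split of all changed genes at 42.5 °C moved from 2180 higher and 2330 lower to 1206 higher and 3290 lower. For the set it moved from 2 higher and 2 lower to 1 higher and 4 lower.

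**Figure D2:**
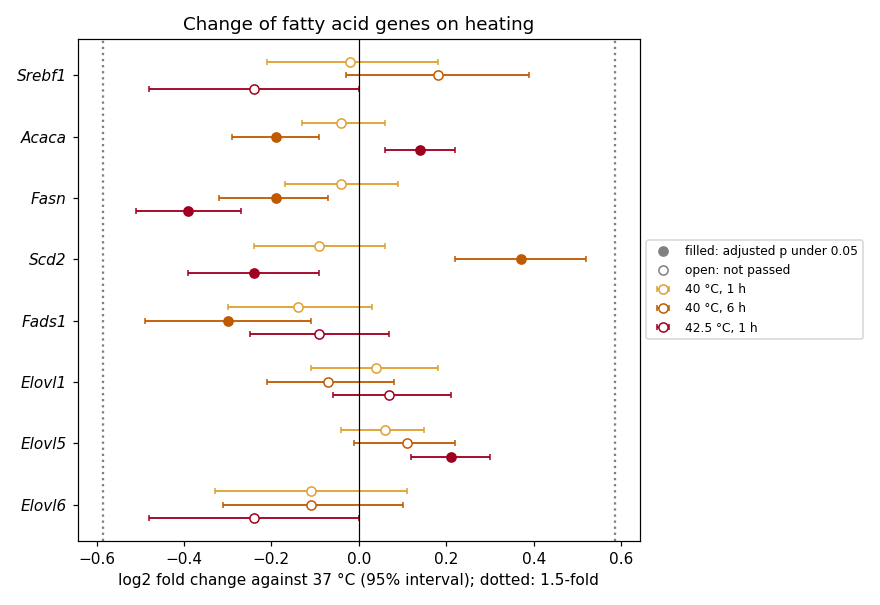
Log2 fold change against 37 °C (horizontal axis) of the 8 genes tested, with 95% intervals from edgeR, for 1 and 6 h of 40 °C and for 42.5 °C. Filled points have an adjusted p under 0.05, dotted lines mark 1.5-fold, and the 3 comparisons share their 3 control libraries. No filled point belongs to 40 °C for 1 h, Acaca and Scd2 have filled points on opposite sides of 0, and no point reaches 1.5-fold.

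Srebf1, the regulator of the set (ENSCGRG00001011040), had 11.6, 11.7 and 10.9 CPM at 37 °C and 12.5 CPM in replicate D. It had 11.7, 11.2, 10.5 and 11.7 CPM after 1 h at 40 °C and 14.3, 13.1, 12.6 and 12.0 CPM after 6 h. At 42.5 °C the libraries gave 10.0, 7.99, 10.4 and 10.4 CPM. The 4 libraries of 40 °C for 6 h thus lay above, and the 4 of 42.5 °C below, the 3 controls used. Replicate D lay inside the range of the 6 h group. Neither difference from 37 °C passed the test, with a log2 change of 0.18 after 6 h (SE 0.10, adjusted p = 0.185) and -0.24 at 42.5 °C (SE 0.11, adjusted p = 0.0923). The latter reached -0.31 and an adjusted p of 0.0318 with scaling by total counts alone. With replicate D in the fit neither of these differences passed. Set directly against each other, the heated groups differed: Srebf1 was lower by 1.34-fold at 42.5 °C than at 40 °C for 6 h (log2 -0.42, SE 0.11, adjusted p = 0.00382). Leaving out any 1 library kept that difference between -0.46 and -0.34. From high to low the order was the 6 h group, 37 °C, 1 h of 40 °C and then 42.5 °C, in which no neighbouring groups differed by the test (the middle means were 11.4 and 11.3 CPM).

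Of the synthesis enzymes, acetyl-CoA carboxylase moved in opposite directions under the longer mild and the moderate heat. Acaca (ENSCGRG00001022253) had 224, 227 and 217 CPM at 37 °C and 213, 229, 223 and 203 CPM after 1 h at 40 °C. It had 205, 189, 197 and 192 CPM after 6 h at 40 °C, and 243, 246, 255 and 244 CPM at 42.5 °C. The 3 ranges of 37 °C, 40 °C for 6 h and 42.5 °C did not overlap, while the library at 106 CPM was replicate D. Against 37 °C the gene fell by 0.19 on the log2 scale after 6 h (SE 0.05, adjusted p = 0.00497) and rose by 0.14 at 42.5 °C (SE 0.04, adjusted p = 0.0072). With replicate D these became 0.01 (adjusted p = 0.986) and 0.35 (adjusted p = 0.273), so that the fall after 6 h rests on leaving it out. The rise at 42.5 °C was 0.07 with an adjusted p of 0.176 under scaling by total counts alone. The direct comparison of heated groups uses no control: Acaca was 1.26-fold higher at 42.5 °C than after 6 h at 40 °C (log2 0.33, SE 0.04, adjusted p = 7.48e-06), and between 0.31 and 0.35 (log2) with any 1 library left out. It was also higher at 42.5 °C than after 1 h at 40 °C (log2 0.18, adjusted p = 0.00447). Between 1 h and 6 h at 40 °C it fell by 0.15 on the log2 scale (adjusted p = 0.0321), a call that was lost on leaving out any of 6 of the 8 libraries, with adjusted p up to 0.107. The order of the group means was 42.5 °C (247 CPM), 37 °C (223 CPM), then 1 h (217 CPM) and 6 h (195 CPM) of 40 °C, of which 37 °C and 1 h of 40 °C were not separated by the test.

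Fatty acid synthase fell under moderate heat. Fasn (ENSCGRG00001018442) had 757, 737 and 725 CPM at 37 °C and 793, 757, 690 and 637 CPM after 1 h at 40 °C. It had 659, 680, 684 and 569 CPM after 6 h, and 612, 565, 597 and 498 CPM at 42.5 °C. Every library of the latter 2 groups lay below the 3 controls used, but replicate D, at 411 CPM, lay below them all. At 42.5 °C Fasn fell by 23.6% (log2 -0.39, SE 0.06, adjusted p = 5.1e-05), and the change stayed between -0.42 and -0.33 with any 1 library left out. With replicate D the change was -0.21 (adjusted p = 0.455). The fall against 40 °C for 1 h, which involves no control, was -0.35 (log2, SE 0.07, adjusted p = 0.000999) with no overlap of the libraries.

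After 6 h at 40 °C the fall of Fasn was smaller, -0.19 (log2, SE 0.06, adjusted p = 0.0176). It was -0.17 (adjusted p = 0.0852) without 37 °C replicate A, -0.19 (adjusted p = 0.066) without 37 °C replicate B, and -0.03 (adjusted p = 0.941) with replicate D. Between 42.5 °C and 40 °C for 6 h the difference was -0.20 (log2, adjusted p = 0.0189), and it did not pass without 40 °C 6 h replicate B (-0.17, adjusted p = 0.054), without replicate C of that group (-0.17, adjusted p = 0.0616) or without 42.5 °C replicate D (-0.14, adjusted p = 0.0631). The order from high to low was 37 °C, 1 h of 40 °C, 6 h of 40 °C and 42.5 °C, and the first 3 neighbours in it were not separated by the test (6 h against 1 h at 40 °C, adjusted p = 0.133).

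Within each library the counts of Fasn were divided by those of Acaca, a ratio that does not depend on library scaling and was chosen after the values had been seen. It was 3.32 ± 0.0717 (SD, n = 3) at 37 °C, 3.31 ± 0.288 (n = 4) after 1 h at 40 °C and 3.32 ± 0.284 (n = 4) after 6 h. At 42.5 °C it was 2.3 ± 0.198 (n = 4), between 2.04 and 2.52, and below every other library, the lowest of which was 2.96. Replicate D gave 3.88, the highest of all, so that its low counts for both enzymes did not come with a low ratio.

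**Figure D3:**
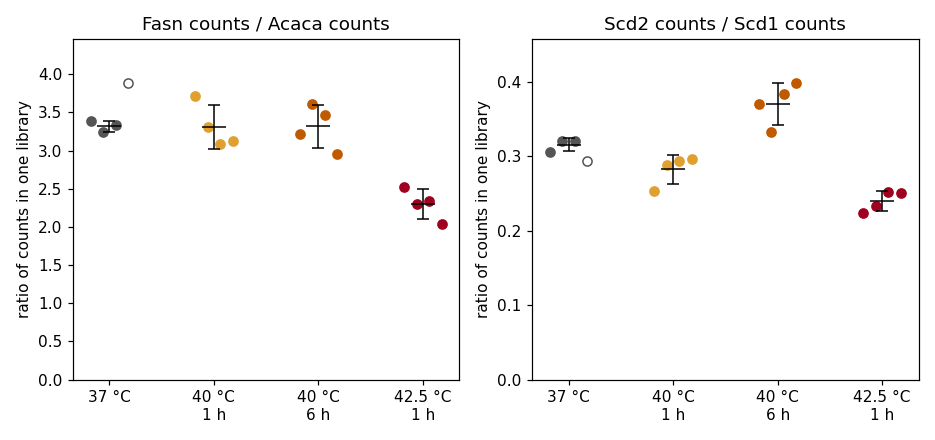
Ratio of the counts of Fasn to Acaca and of Scd2 to Scd1 within each library (vertical axes, from 0, no unit), by group. Filled points are libraries used, open points are 37 °C replicate D, and bars are the mean ± SD. Ratios of Fasn to Acaca at 42.5 °C lie between 2.04 and 2.52, under all other libraries, and ratios of Scd2 to Scd1 run from 0.224 to 0.252 at 42.5 °C and from 0.332 to 0.398 after 6 h at 40 °C.

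Among the desaturases of the set, Scd2, a stearoyl-CoA desaturase, had the largest change against 37 °C, after 6 h at 40 °C. Scd2 (ENSCGRG00001023207) had 106, 121 and 121 CPM at 37 °C, with 107 CPM in replicate D, and 93.9, 111, 115 and 116 CPM after 1 h at 40 °C. After 6 h at 40 °C it had 140, 136, 156 and 167 CPM, whereas at 42.5 °C it had 87.2, 94.1, 106 and 107 CPM. All 4 libraries of the 6 h group lay above all 12 others of the series. Scd2 rose by 29.1% against 37 °C (log2 0.37, SE 0.07, 95% interval 0.22 to 0.52, adjusted p = 0.000902) and rose likewise against 1 h at 40 °C (log2 0.46, SE 0.07, adjusted p = 0.00044). Including replicate D left a rise of 0.39 (adjusted p = 0.0194), and the change against 37 °C was between 0.31 and 0.41 with any 1 library left out.

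At 42.5 °C Scd2 was lower, with a log2 change of -0.24 (SE 0.07, adjusted p = 0.0114), but 2 of the 4 libraries lay inside the range of the controls. The call was lost without 37 °C replicate B (-0.21, adjusted p = 0.0624), without 37 °C replicate C (-0.21, adjusted p = 0.0557) and with replicate D (-0.20, adjusted p = 0.143). Against 40 °C for 6 h Scd2 was 1.53-fold lower (log2 -0.61, SE 0.07, adjusted p = 3.42e-06), which made it the 1 gene of the set past 1.5-fold in any of the 6 comparisons. Past that fold, 5.72% of all genes were lower in this comparison. The order was 6 h of 40 °C, 37 °C, 1 h of 40 °C and 42.5 °C. Of these neighbours only the first 2 differed by the test, though 42.5 °C against 40 °C for 1 h had an adjusted p of 0.0196 without 40 °C 1 h replicate A and of 0.121 with it.

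Its paralogue Scd1, from the list of other desaturases, was not lower at 42.5 °C. Scd1 had 367 ± 19.2 CPM (n = 3) at 37 °C, 404 ± 17.4 CPM (n = 4) after 6 h at 40 °C and 410 ± 16.7 CPM (n = 4) at 42.5 °C, and rose by 0.14 (log2, adjusted p = 0.049) and 0.15 (log2, adjusted p = 0.0118). With replicate D the former had an adjusted p of 0.173, and it did not pass under scaling by total counts alone. The latter was 0.17 (adjusted p = 0.0746) with replicate D and 0.08 (adjusted p = 0.165) under scaling by total counts alone. The ratio of Scd2 to Scd1 counts within a library, also chosen after the values had been seen, was 0.316 ± 0.00817 at 37 °C, 0.283 ± 0.0195 after 1 h at 40 °C, 0.371 ± 0.0283 after 6 h and 0.24 ± 0.0138 at 42.5 °C. The 6 h libraries were all above, and the 42.5 °C libraries all below, the others. How reads shared by such similar transcripts were counted is not given in the sources used here, so the split between Scd1 and Scd2 is uncertain.

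Fads1, the delta-5 desaturase of polyunsaturated fatty acids, fell after the longer mild heat. Fads1 (ENSCGRG00001018831) had 24.9, 27.8 and 24.0 CPM at 37 °C and 23.5, 23.6, 21.7 and 24.4 CPM after 1 h at 40 °C. It had 23.2, 18.1, 21.8 and 20.4 CPM after 6 h, and 24.3, 24.8, 24.7 and 23.1 CPM at 42.5 °C. The 6 h libraries lay below the 3 controls used, although replicate D, at 22.9 CPM, was inside their range. The fall after 6 h was -0.30 (log2, SE 0.09, adjusted p = 0.0184). It did not pass without 37 °C replicate B (-0.23, adjusted p = 0.131), without 40 °C 6 h replicate B (-0.24, adjusted p = 0.0545) or with replicate D (-0.26, adjusted p = 0.132). The difference between 42.5 °C and 40 °C for 6 h was 0.21 (log2, adjusted p = 0.0487), and it was lost on leaving out any of 6 of the 8 libraries, with adjusted p up to 0.155. At 42.5 °C against 37 °C the change was -0.09 (adjusted p = 0.357). The group means were 25.6, 24.2, 23.3 and 20.9 CPM at 37 °C, at 42.5 °C and after 1 and 6 h of 40 °C, with no neighbours in this order separated by the test.

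Fads2 (ENSCGRG00001013858), the delta-6 desaturase that acts ahead of Fads1, was barely counted. It had 1 count in 37 °C replicate A, 2 counts in replicate B and 1 count in replicate C of 40 °C for 1 h, and 0 in the other 13 libraries. A count of 0 allows up to 0.205 to 0.286 CPM at these depths, so no difference between groups was detectable. These limits cover counting error only. Fads3, a neighbouring family member from the list of other desaturases, had 40.0 ± 1.46 CPM (n = 3) at 37 °C and fell to 27.5 ± 2.51 CPM (n = 4) after 6 h at 40 °C (log2 -0.55, SE 0.07, adjusted p = 4.94e-05).

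Of the elongases, Elovl5 rose at 42.5 °C. Elovl5, which lengthens polyunsaturated chains (ENSCGRG00001012477), had 246, 262 and 253 CPM at 37 °C and 231 CPM in replicate D. It had 280, 256, 267 and 251 CPM after 1 h at 40 °C and 267, 299, 269 and 258 CPM after 6 h. At 42.5 °C it had 286, 291, 291 and 310 CPM, all above the controls. The rise at 42.5 °C was 15.5% (log2 0.21, SE 0.04, adjusted p = 0.000843), between 0.19 and 0.23 (log2) with any 1 library left out, and 0.25 (adjusted p = 0.021) with replicate D. Against 40 °C for 1 h Elovl5 was higher by 0.15 (log2, adjusted p = 0.0115), which became 0.10 (adjusted p = 0.0822) with scaling by total counts alone. After 6 h at 40 °C the change against 37 °C was 0.11 (adjusted p = 0.141). The order was 42.5 °C, 6 h of 40 °C, 1 h of 40 °C and 37 °C, with no neighbours separated by the test.

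Elovl6, which takes palmitate to stearate (ENSCGRG00001016844), had 14.9, 15.5 and 14.3 CPM at 37 °C and 9.61 CPM in replicate D. Its ranges were 12.6 to 16.6 CPM after 1 h at 40 °C, 12.3 to 15.5 CPM after 6 h and 10.2 to 14.5 CPM at 42.5 °C, all of which overlapped. The largest change was -0.24 at 42.5 °C (log2, SE 0.11, adjusted p = 0.0954), which had an adjusted p of 0.0348 under scaling by total counts alone. Elovl1, an elongase of saturated and monounsaturated very long chains (ENSCGRG00001011104), stayed between 27.7 and 33.2 CPM in all 16 libraries. Its group means were 29.8, 30.5, 28.5 and 31.5 CPM at 37 °C, after 1 and 6 h of 40 °C and at 42.5 °C, and no comparison with 37 °C passed (adjusted p = 0.855, 0.489 and 0.37). With replicate D in the fit, neither Elovl6 nor Elovl1 passed in any comparison with 37 °C.

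The 3 comparisons between heated groups test treatments against each other without the controls. Between 6 h and 1 h at 40 °C, Scd2 was higher and Acaca lower, 1 of 8 each way beside 9.45% of all genes higher and 9.04% lower. Between 42.5 °C and 40 °C at 1 h, Acaca and Elovl5 were higher and Fasn lower, which is 2 of 8 beside 16.4% and 1 of 8 beside 19.6%. The 42.5 °C group against 40 °C for 6 h had the most calls: Acaca and Fads1 higher (2 of 8 beside 22.5%) and Srebf1, Fasn and Scd2 lower (3 of 8 beside 24.5%).

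Genes around the set were described from lists written from general knowledge. Their counts stand beside 14.7% of all genes higher and 14.8% lower after 6 h at 40 °C, and 20.8% higher and 22.3% lower at 42.5 °C. Counts with replicate D stand beside fewer calls over all genes. These were 566 higher and 556 lower of 10448 after 6 h, and 710 higher and 1185 lower of 10408 at 42.5 °C. Among 14 genes of SREBP processing and lipogenic regulation, 11 were tested. After 6 h at 40 °C 3 rose and 1 fell, and at 42.5 °C 0 rose and 5 fell, with a median of -0.16 beside 0 over all genes. Insig1, which holds SREBP precursors in the endoplasmic reticulum and is itself an SREBP target, had 27.6 ± 1.71 CPM (n = 3) at 37 °C, 33.2 ± 4.73 CPM (n = 4) after 6 h at 40 °C and 20.5 ± 3.07 CPM (n = 4) at 42.5 °C. It rose by 0.27 (log2, adjusted p = 0.0401) and fell by 0.43 on the log2 scale (adjusted p = 0.00259), and the heated groups differed by -0.70 (adjusted p = 6.11e-05). The rise after 6 h passed in 7 of 17 fits and in 2 of the 7 that left out 1 library, with adjusted p up to 0.168 in these, so the call rests on single libraries (37 °C replicates A, B and C, and replicates C and D of the 6 h group). Mid1ip1, whose protein helps acetyl-CoA carboxylase to polymerise, fell by 0.94 on the log2 scale at 42.5 °C, from 14.8 ± 0.964 to 7.83 ± 1.75 CPM (adjusted p = 6.14e-05). Nr1h3, the liver X receptor alpha, rose by 0.45 (log2, adjusted p = 0.00175) after 6 h at 40 °C. Srebf2, the regulator of cholesterol synthesis, fell by 0.21 on the log2 scale at 42.5 °C (adjusted p = 0.00171). With replicate D the counts in this list were 0 higher and 0 lower after 6 h, and 0 higher and 2 lower at 42.5 °C.

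The suppliers of acetyl-CoA, malonyl-CoA and NADPH gave 8 tested genes. After 6 h at 40 °C 1 rose (Idh1, 0.27) and 2 fell (Aacs, -0.32, and Slc25a1, the mitochondrial citrate carrier, -0.27), and at 42.5 °C 2 rose (malic enzyme Me1, 0.22, and Idh1, 0.19) and 1 fell (Aacs, -0.39), all as log2 changes. Scaling by total counts alone turned the latter balance to 1 higher and 4 lower, and with replicate D the counts were 0 higher and 2 lower after 6 h and 1 each way at 42.5 °C. Among the other desaturases and their electron carriers, 8 tested, 2 rose and 3 fell after 6 h at 40 °C, with Cyb5r1, a cytochrome b5 reductase, at -0.39 (adjusted p = 3.47e-05) and Cyb5a, a cytochrome b5, at 0.18 (adjusted p = 0.0189). At 42.5 °C 3 rose and 2 fell, among them Cyb5r4 at 0.25 (adjusted p = 0.00148) and Cyb5b at -0.19 (adjusted p = 0.0213). With replicate D 0 were higher and 2 lower after 6 h, and 1 higher and 0 lower at 42.5 °C, while total-count scaling gave 1 higher and 2 lower at 42.5 °C. The other elongases and enzymes of the elongation cycle, 7 tested, had 2 higher and 0 lower in both comparisons. Hacd3, a dehydratase of the cycle, rose by 0.27 after 6 h and by 0.18 at 42.5 °C, while Elovl7 rose by 0.24 after 6 h and Hsd17b12, the ketoacyl reductase, by 0.17 at 42.5 °C. Neither rise of this list at 42.5 °C passed with total-count scaling or with replicate D, and 1 of the 2 after 6 h passed in each.

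Cholesterol synthesis and uptake, which shares regulators with the set, was measured in 16 genes. After 6 h at 40 °C 5 rose and 2 fell, led by Idi1 at 0.48 (log2, adjusted p = 0.000131), with Fdft1 at 0.33 and Cyp51 at 0.25. At 42.5 °C 2 rose and 6 fell, led by Dhcr7 at -0.49 (log2, adjusted p = 3.06e-06). Between these heated groups 1 gene was higher and 7 were lower at 42.5 °C, beside 22.5% and 24.5% of all genes. The median of the list was -0.22 beside 0 over all genes. Including replicate D left 2 higher and 0 lower after 6 h, and 0 higher and 4 lower at 42.5 °C. Scaling by total counts alone gave 0 higher and 8 lower at 42.5 °C.

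Steps that use or remake fatty acids elsewhere were also counted. In activation and binding, 4 tested, 2 rose and 2 fell after 6 h at 40 °C (Acbd3 0.30, Acsl3 0.24, Acsl1 -0.29 and Acsl6 -0.63, log2), and 1 rose at 42.5 °C (Acbd3, 0.30). With replicate D 1 rose and 1 fell after 6 h, and 1 rose at 42.5 °C. Acsl6 was low, at 3.3 ± 0.969 CPM (n = 3) at 37 °C and 2.14 ± 0.474 CPM (n = 4) after 6 h, with overlapping libraries. Its fall (adjusted p = 0.0487) passed in 8 of 17 fits and in 3 of the 7 that left out 1 library. The rise of Acsl3 (adjusted p = 0.0279) passed in 11 of 17 and in 4 of the 7. In mitochondrial fatty acid synthesis, 6 tested, Oxsm, the ketoacyl synthase, fell in both comparisons, from 13.5 ± 1.38 CPM (n = 3) to 8.98 ± 0.584 (log2 -0.60, adjusted p = 0.000572) and 7.99 ± 1.24 CPM (log2 -0.78, adjusted p = 0.000137). Cbr4 fell by 0.48 and Acsf3 rose by 0.34 after 6 h, and Mcat fell by 0.40 at 42.5 °C, all on the log2 scale. With replicate D 0 rose and 2 fell in both comparisons. In fatty acid oxidation, 12 tested, 0 rose and 2 fell after 6 h, and 2 rose and 2 fell at 42.5 °C. Neither rise at 42.5 °C passed with replicate D or with total-count scaling, and with replicate D 1 gene fell after 6 h. The largest of the called changes in this list was that of Cpt1c, a carnitine palmitoyltransferase 1 isoform at a low level. It fell 2.96-fold at 42.5 °C, from 6.72 ± 0.691 CPM (n = 3) to 2.26 ± 0.413 CPM (n = 4, log2 -1.57, adjusted p = 2.77e-06), while the median of the list was 0.07. After 1 h at 40 °C none of these lists had a gene past edgeR's test or DESeq2's. By edgeR's test 1 to 3 genes in each list had an unadjusted p under 0.05, beside 1556 of all 10494 genes. With a replicate block by letter, Acbd3 was higher (log2 0.16, adjusted p = 0.0227) and Oxsm lower (log2 -0.37, adjusted p = 0.0342). Over all 10494 genes this block gave 381 higher and 253 lower, and the labels do not say that letters pair cultures. Of 43 calls named from the lists, 19 were lost with replicate D in the fit, among them the rises of Insig1 and Nr1h3 after 6 h at 40 °C and the fall of Srebf2 at 42.5 °C.

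**Figure D4:**
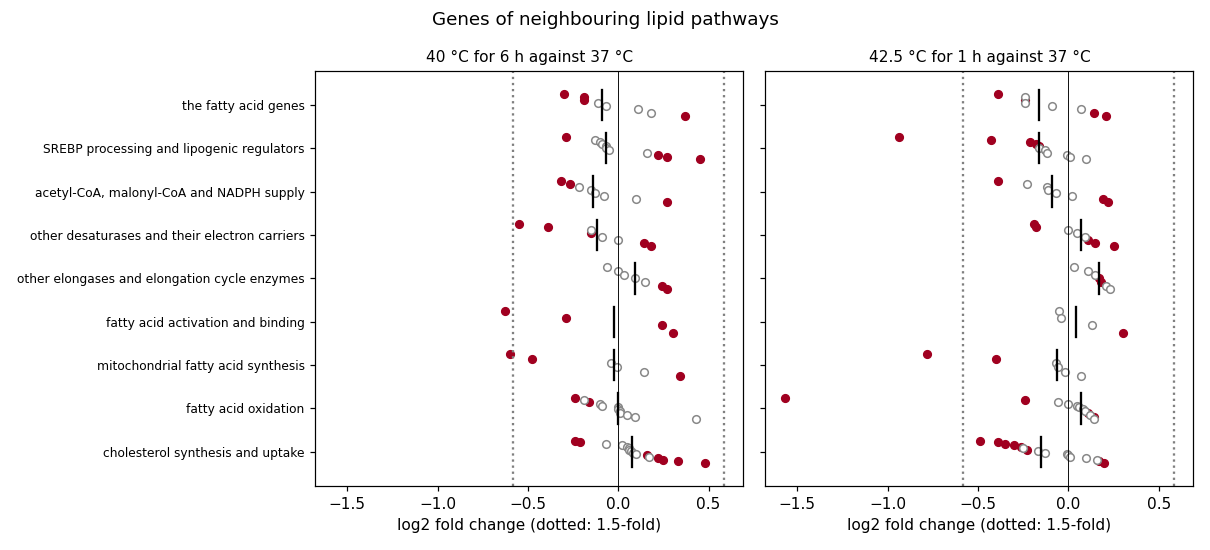
Log2 fold change against 37 °C (horizontal axis, the same in both panels) of each tested gene, by list (vertical axis), after 6 h at 40 °C and after 1 h at 42.5 °C. Filled points have an adjusted p under 0.05, open points do not, black bars are list medians and dotted lines mark 1.5-fold. The median of the cholesterol list is 0.08 after 6 h and -0.15 at 42.5 °C, and the lowest point at 42.5 °C is Cpt1c at -1.57.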

How the data were processed

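RNA of 16 cultures of CHO cells (4 groups of 4) was isolated on columns, made into TruSeq libraries and sequenced as paired ends on a NextSeq. The authors trimmed reads, mapped them to CHOK1GS_HDv1 with CLC Genomics Workbench and deposited the raw count of reads per gene and library, whole numbers with no normalization. Annotation release, strandedness and the treatment of reads with several places are not given in the sources used here. Total counts were 10504192 to 14668365 per library, and intervals and floors from counts cover counting error only.

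Genes were found by name. The members and lists were chosen with earlier results of these data known. Tests between groups used edgeR 4.0.16 under R 4.3.3 (filterByExpr, TMM, quasi-likelihood test, two-sided, 2 groups per fit), with Benjamini-Hochberg adjustment over all genes tested and 6 comparisons, and 37 °C replicate D was left out. Adjusted p values with no other tool named are from this test, and errors of log2 changes are its SE. The test was checked on simulated data with 200 changed genes. Genes named outside the set were, per list and comparison with 37 °C, those past an adjusted p of 0.05 and 1.5-fold, and up to 3 with the smallest adjusted p. Some genes that this rule names are not reported here. Their values in further comparisons, the marker genes and the heat genes are given as checks or beside a gene of the set, chosen after they had been seen.

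Alternatives were DESeq2 1.42.0 (size factors, Wald test), no filter, at least 10 counts in every library, 1 fit over all groups, a replicate block by letter, glmTreat against 1.5-fold, all 4 controls, each library left out in turn, and scaling by total counts alone. For the replicate block, libraries with the same letter were correlated after subtraction of group means. Every pair exceeded 0.1 only between 40 °C for 1 h and 37 °C (mean r 0.16 over 3 pairs, across genes). Pairs of unlike letters there reached 0.15. The labels do not say that letters pair cultures, so pairing remains unknown. The block changed no call of the set in that comparison.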

Additional observations from a re-analysis of the deposited data

Results flagged for a closer look

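A sample far from the rest of its group was found for 5 genes of the set, by Dixon's ratio of the gap to the range, among 34 groups of 4 libraries checked, and chance flags about 1 in 20. At 37 °C replicate D lay far below the others for Acaca (ratio 0.913) and Fasn (0.908). Fads2 at 37 °C reached 1.0 because its only count was 1 read in replicate A. Srebf1 at 42.5 °C gave 0.84, with replicate B low at 7.99 CPM, and Elovl1 at 40 °C for 6 h gave 0.859, with replicate D high at 30.2 CPM.

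Differences between treatments that passed the direct edgeR test between heated groups are given as log2 changes. Between 6 h and 1 h at 40 °C they were -0.15 for Acaca and 0.46 for Scd2. Between 42.5 °C and 40 °C at 1 h they were 0.18 for Acaca, -0.35 for Fasn and 0.15 for Elovl5. Between 42.5 °C and the 6 h group they were -0.42 for Srebf1, 0.33 for Acaca, -0.2 for Fasn, -0.61 for Scd2 and 0.21 for Fads1. In the last pair of groups temperature and time differ together, and their parts cannot be told apart.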

How the results depend on the processing

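Over all alternatives, 687 of 768 log2 changes of the set kept their direction and side of the threshold, 51 lost a call, 11 gained one and 19 turned sign. Of these 19, 1 had been a call (Acaca after 6 h at 40 °C, 0.01 with all 4 controls), and none passed after turning. For the other named genes 570 of 688 kept both and 118 lost the call. With all 4 controls, 1 gene of the set changed after 6 h and 1 at 42.5 °C, and genes changed over all genes numbered 4 after 1 h at 40 °C (172 without replicate D), 1122 after 6 h (3091) and 1895 at 42.5 °C (4510). Against 1.5-fold as the null (glmTreat) 0 genes of the set changed in any comparison, also of those past 1.5-fold, since this null needs a change well beyond that fold, and over all genes 2, 31 and 262 changed against 37 °C in the order above, 8 between 6 h and 1 h at 40 °C (1931), 171 between 42.5 °C and 40 °C at 1 h (3767) and 260 between 42.5 °C and 6 h (4904). After 1 h at 40 °C genes changed over all genes also moved to 323 with no filter, 107 in 1 fit over all groups and 634 with the replicate block; the cause was not tested.

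Leaving out 1 library in turn gave 2 to 4 changed genes of the set after 6 h, 3 to 4 at 42.5 °C, 1 to 3 between 6 h and 1 h at 40 °C, 3 to 4 between 42.5 °C and 40 °C at 1 h, 3 to 5 between 42.5 °C and 6 h, and 0 to 1 past 1.5-fold in the last. Over all genes, of which 10425 to 10576 were tested, it gave 63 to 276 after 1 h at 40 °C and 2092 to 3371 after 6 h. At 42.5 °C it gave 3519 to 4484 against 37 °C and 3088 to 3736 against 1 h at 40 °C. Between 42.5 °C and 6 h it gave 4278 to 4791, with 810 to 922 past 1.5-fold, and between 6 h and 1 h 1282 to 2080.

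Signs that turned, none of them past the test, were with all 4 controls after 1 h at 40 °C Acaca 0.17, Fasn 0.13 and Elovl6 0.02, and after 6 h Acaca 0.01 and Elovl6 0.03; with the replicate block after 1 h at 40 °C Fasn 0.01 and Elovl1 -0.01; and with scaling by total counts alone Elovl1 -0.001 at 42.5 °C, and Fads1 -0.01 and Elovl1 -0.02 between 42.5 °C and 40 °C at 1 h. With 1 library left out the ranges that crossed 0 were, after 1 h at 40 °C, Srebf1 -0.05 to 0.01, Fasn -0.09 to 0.01 and Elovl1 -0.01 to 0.06, and Elovl6 -0.05 to 0.10 between 6 h and 1 h.

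In the other comparisons the replicate block lost the call of Fads1 after 6 h at 40 °C (-0.29, adjusted p = 0.0554). It gave calls to Elovl5 after 6 h (0.13, adjusted p = 0.0355) and to Fasn between 6 h and 1 h (-0.15, adjusted p = 0.028). Scd2 gained a call between 42.5 °C and 40 °C at 1 h (-0.15, adjusted p = 0.0106). The block changed no other call of the set. Low counts kept only Fads2 out of the test, at 0 to 2 counts a library. Srebf1 (81 to 172 counts) and Elovl6 (108 to 216 counts) were the next lowest of the set. Their SE at 42.5 °C against 37 °C was 0.11 each, beside 0.04 for Acaca (1192 to 3187 counts). The part of depth in their missing calls was not tested.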
